A study of Oryctolagus cuniculus with 24 samples.

Results

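Platelets have no nucleus and carry messenger RNA that they inherit from the megakaryocytes that shed them, so the transcripts found in them are a stock that is spent rather than renewed. They shape and use a small set of proteins that few other blood cells make in quantity. A special β-tubulin forms the ring of microtubules under the platelet membrane, the integrin chains αIIb and β3 together form the receptor for fibrinogen, the GPIb-IX-V complex binds von Willebrand factor, the α-granules hold chemokines such as PF4 and PPBP, and TREML1 is a receptor kept in the granule membrane until activation. Platelets also adhere to leukocytes and are often carried along when mononuclear cells are separated from blood.

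Transcripts of 8 platelet proteins were looked for on the rabbit arrays: TUBB1, PF4, PPBP, ITGA2B, ITGB3, GP1BA, GP9 and TREML1. A gene was taken where a probe of the scanner files carried its symbol, directly or through the RefSeq accession or gene number that the files give. This found 5 of the 8, TUBB1, ITGA2B, ITGB3, GP1BA and TREML1, with 10 probes between them, among 28865 genes and 42089 probes in all. PF4 and PPBP had no probe by this rule. GP9 had 1 probe, which only the study's own list of added immune genes names, so its values are given beside the 5 and are in none of their counts. A chemokine that the files describe as platelet microbicidal protein 1 (LOC100008921) was added after its values were seen. The RefSeq gene table lists it apart from PPBP, and whether it is the rabbit counterpart of PF4 was not settled here.

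Peripheral blood mononuclear cells (PBMCs) came from 4 adult females of the New Zealand White strain, called rabbits 1, 2, 4 and 5 in the labels, and were separated from heparinized blood on a density gradient, a step that can leave platelets among the leukocytes. Each rabbit's cells were cultured without stimulus (mock), with LPS at 1 µg/mL or with PMA at 10 ng/mL and ionomycin at 1 µg/mL (PMA-Ionomycin), for 4 h (T4) or 24 h (T24). LPS is the endotoxin of Gram-negative bacteria, which acts on monocytes through TLR4, and PMA with ionomycin activates protein kinase C and raises calcium in lymphocytes and platelets alike. The 6 stimulation and time groups held 4 cultures each, 1 from each rabbit, and each culture was read on 1 one-colour array. The p-values thus measure the spread between animals within groups, pooled over the groups. They leave out the pairing by rabbit except where a rabbit block is named. In such bulk cultures fewer platelets and less platelet RNA per cell cannot be told apart.

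Levels below are log2 median spot signals minus the median of the array, so that 0 is the level of the median spot. Between 51.4% and 62.3% of the spots were well above background by the scanner's flag. Of the other cell types that PBMC preparations hold, all 4 mock arrays at T4 showed signal well above background for 12 of 12 monocyte, 9 of 11 T cell, 7 of 7 B cell and 2 of 2 NK cell markers with a probe, and for 9 of 11 neutrophil and 4 of 8 erythrocyte markers. Calls are adjusted p under 0.05 in a limma fit with Benjamini-Hochberg adjustment over all genes, and a log2 FC (fold change) is followed by its standard error.

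The probes are shown because each gene is seen through so few bases. The coordinates are those of the files, on the oryCun2 build, and the place of a probe within its gene was not annotated here. TREML1 lay at chr12:30905699-30905758 on the minus strand, GP1BA at chr19:12446007-12446066 on the plus strand, and the probe for platelet microbicidal protein 1 at chr15:76281283-76281342 on the minus strand, while the probes of TUBB1 and GP9 were not placed. The 2 ITGA2B probes lay at chr19:44648503-44648562 and chr19:44648510-44648569 on the minus strand and shared 53 of their 60 bases, printed in capitals, with 1 difference, T19C (counted from the 5′ end of the first probe).
TUBB1: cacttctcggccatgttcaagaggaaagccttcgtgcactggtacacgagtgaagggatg
ITGA2B, first probe: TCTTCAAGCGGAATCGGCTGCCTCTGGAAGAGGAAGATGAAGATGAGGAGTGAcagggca
ITGA2B, second probe: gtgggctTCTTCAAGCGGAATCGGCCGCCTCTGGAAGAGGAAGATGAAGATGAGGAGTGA
GP1BA: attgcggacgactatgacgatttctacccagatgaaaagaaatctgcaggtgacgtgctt
GP9: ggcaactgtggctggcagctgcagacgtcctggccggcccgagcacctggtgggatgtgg
TREML1: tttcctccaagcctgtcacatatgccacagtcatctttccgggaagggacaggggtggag
Platelet microbicidal protein 1: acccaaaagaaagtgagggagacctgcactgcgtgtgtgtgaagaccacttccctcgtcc
ITGB3 had 5 probes on the plus strand of chromosome 19. Of these, 4 were stacked between chr19:46761398-46761544 and overlapped their neighbours by 13 to 40 bases. The fifth, whose sequence follows, was placed at chr19:46736188-46737337, a span longer than the probe.
ITGB3, separate probe: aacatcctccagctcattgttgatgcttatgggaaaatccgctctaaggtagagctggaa

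The first comparison was time in culture without stimulus. Most of the members were far lower at T24 than at T4 in mock-stimulated PBMCs, and every rabbit showed it. TUBB1 fell by 4.35 on the log2 scale, a 20.4-fold loss, TREML1 by 4.03, ITGB3 by 2.83 and ITGA2B by 1.79. These sizes depend on the processing. Over the alternatives described at the end, the log2 FC ran from -4.81 to -4.29 for TUBB1 and from -5.85 to -3.70 for TREML1. ITGB3 ran from -3.64 to -2.70 and ITGA2B from -3.41 to -1.45. Of the 5 members, 4 were called lower and none higher, where 5.13% of all genes were called lower. The median log2 FC of the 5 was -2.83, against -0.06 over all genes. GP1BA was not called.

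TUBB1, the β-tubulin of the platelet's marginal band, stood at 5.52, 5.78, 5.24 and 6.51 in the mock cultures of rabbits 1, 2, 4 and 5 at T4. At T24 the same rabbits read 1.24, 1.64, 0.80 and 1.99. No mock culture at T24 came near any mock culture at T4, and the rabbits differed little in how far they moved, from -4.53 to -4.14 (log2 FC -4.35 ± 0.38, adjusted p = 4.78e-08, lower in 4 of 4 rabbits). By log2 FC, TUBB1 held rank 8 from the lowest of 28865 genes.

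TREML1, the receptor of the α-granule membrane, read 3.47, 3.62, 2.84 and 4.65 at T4 in rabbits 1, 2, 4 and 5. At T24 it read -0.78, -1.05, -0.23 and 0.53, and only 2 of these 4 arrays were well above background. The groups did not overlap (log2 FC -4.03 ± 0.46, adjusted p = 1.41e-06), and TREML1 held rank 13 from the lowest.

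Both fibrinogen receptor chains were lower at T24. ITGB3, which also pairs with the integrin αV chain in other cells, read 3.64, 3.32, 2.80 and 3.66 at T4. It read 0.41, 0.51, 0.55 and 0.64 at T24 (log2 FC -2.83 ± 0.27, adjusted p = 1.61e-07). The 4 rabbits lay close together at T24 (SD 0.10, n = 4) and wider apart at T4 (SD 0.40, n = 4). ITGA2B, whose αIIb chain pairs with β3 alone, read 1.00, 0.99, 0.88 and 1.99 at T4 and -0.59, -0.90, -0.64 and -0.19 at T24. Its log2 FC was -1.79 ± 0.23 (adjusted p = 5.68e-06), with 2 of the 4 arrays at T24 well above background.

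The von Willebrand factor receptor was seen poorly. GP1BA, its ligand-binding chain, lay between -1.51 and -0.53 on the 24 arrays and was well above background on none, so no fold is given for it and its log2 differences are those of background-level signals. GP9, a small chain of the same complex, read 1.05, 0.45, 0.54 and 1.92 at T4 and -0.55, -0.38, -0.42 and -0.18 at T24. GP9 was thus lower at T24 in 4 of 4 rabbits, with no overlap (log2 FC -1.37 ± 0.27, adjusted p = 0.000819). Over the alternatives its log2 FC ran from -2.43 to -1.13. The GP9 values given below ran from -2.40 to -1.07 for LPS over time and from -1.63 to -0.81 for PMA-Ionomycin at T4.

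**Figure D1:**
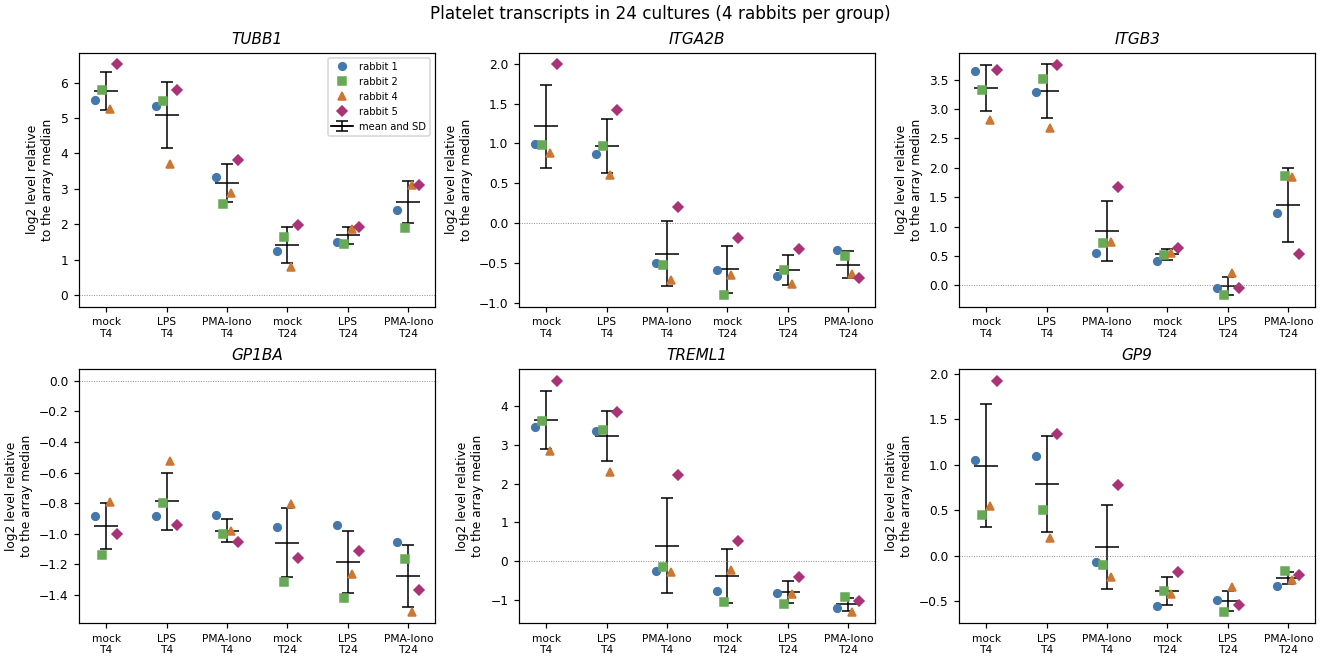
Level of 5 platelet transcripts and GP9 in each culture, as log2 signal relative to the array median (vertical axis, scaled for each gene) by stimulation and time (horizontal axis). Symbols are the 4 rabbits, and bars the mean and SD of 4. TUBB1, ITGA2B, ITGB3, TREML1 and GP9 are on average higher in the mock and LPS cultures at T4 than in the other groups, while GP1BA stays below the median spot.

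The second comparison was time in culture with LPS. Here too TUBB1, TREML1, ITGB3 and ITGA2B were lower at T24 than at T4 in every rabbit, with log2 FC of -3.39, -4.02, -3.31 and -1.55. Over the alternatives TUBB1 ran from -3.93 to -3.18 and TREML1 from -6.55 to -3.71. ITGB3 ran from -4.69 to -3.15 and ITGA2B from -3.20 to -1.35. All 5 members were called lower, 4 of them with signal above background, where 21% of all genes were called lower, and the median log2 FC of the 5 was -3.31 against -0.19 over all genes. The call of GP1BA (log2 FC -0.40 ± 0.13, adjusted p = 0.0253) concerns signals that were not well above background and was lost in 7 of 15 alternatives, quantile normalization among them (adjusted p = 0.415).

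TUBB1 read 5.34, 5.48, 3.71 and 5.78 after 4 h of LPS in rabbits 1, 2, 4 and 5, and 1.50, 1.45, 1.87 and 1.93 after 24 h (adjusted p = 6.63e-07). Rabbit 4 was the lowest of the 4 at T4 by over 1 log2 unit. On that array 51.4% of spots were well above background, the lowest share of all 24. Without it, an alternative chosen after seeing the data, 4 of the 5 members were called lower, all but GP1BA.

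TREML1 read 3.37, 3.39, 2.31 and 3.86 at T4 and -0.82, -1.09, -0.85 and -0.40 at T24, where 1 of 4 arrays was well above background (adjusted p = 7.48e-07). ITGB3 read 3.29, 3.50, 2.68 and 3.74 at T4 and -0.05, -0.16, 0.21 and -0.05 at T24 (adjusted p = 8.38e-09). Both were separated between the times by more than any spread between rabbits. ITGA2B went from 0.87, 0.97, 0.60 and 1.42 to -0.66, -0.59, -0.76 and -0.33 (adjusted p = 1.85e-05), and GP9 from 1.10, 0.50, 0.20 and 1.34 to -0.49, -0.61, -0.35 and -0.54 (adjusted p = 0.000779).

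No member was called between LPS and mock. At T4, 0 of 5 members were called between LPS and mock cultures by limma, where 1.03% of all genes were called, and at T24 it was again 0 of 5, where 1.22% were called. None had an unadjusted p under 0.05 at either time. The log2 FC at T4 was -0.69 for TUBB1 (95% interval -1.49 to 0.10), -0.41 for TREML1 (-1.37 to 0.54), -0.25 for ITGA2B (-0.72 to 0.22) and -0.05 for ITGB3 (-0.62 to 0.52). TUBB1, TREML1 and ITGA2B were lower with LPS in 4 of 4 rabbits, by single differences of -1.54 to -0.19 for TUBB1, and ITGB3 in 2 of 4. With the rabbit as a block the adjusted p was 0.242 for TUBB1, 0.544 for TREML1 and 0.473 for ITGA2B. The intervals for TUBB1 and TREML1 allow a fall of more than 1 log2 unit.

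At T24 the closest to a difference was ITGB3, for which the 4 LPS cultures lay below all 4 mock cultures. Its log2 FC was -0.54 with a 95% interval of -1.10 to 0.03 (adjusted p = 0.505). TREML1 was also lower with LPS in 4 of 4 rabbits (log2 FC -0.41, adjusted p = 0.894), on arrays of which most were not well above background. No difference between LPS and mock in the change over time was called for any member by the interaction term in limma (0 of 5, where 1.94% of all genes were called, and none with an unadjusted p under 0.05).

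PMA-Ionomycin lowered TREML1, TUBB1, ITGB3 and ITGA2B already at 4 h. Against mock at T4, TREML1 was 9.52-fold lower, TUBB1 6.08-fold, ITGB3 5.42-fold and ITGA2B 3.03-fold, each in 4 of 4 rabbits. This made 4 of 5 members called lower and none higher, where 9.34% of all genes were called lower, and the median log2 FC of the 5 was -2.44 against 0.05 over all genes. With PMA-Ionomycin at T4, TREML1 was well above background on 3 of 4 arrays and ITGA2B on 2 of 4, which limits their folds. Over the alternatives the log2 FC ran from -4.38 to -3.07 for TREML1 and from -3.50 to -1.43 for ITGA2B. TUBB1 ran from -2.83 to -2.41 and ITGB3 from -3.15 to -2.22, so the order of the folds was not fixed. This comparison and that of the mock cultures over time share the mock cultures at T4, and side by side the log2 FC were -2.60 and -4.35 for TUBB1, -3.25 and -4.03 for TREML1, -2.44 and -2.83 for ITGB3 and -1.60 and -1.79 for ITGA2B.

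After 4 h of PMA-Ionomycin, TUBB1 read 3.35, 2.58, 2.89 and 3.83 in rabbits 1, 2, 4 and 5 (log2 FC against mock -2.60 ± 0.38, adjusted p = 1.55e-05). All 4 stood below every mock culture of that time and above every mock culture of T24. ITGB3 read 0.54, 0.72, 0.74 and 1.67 (log2 FC -2.44 ± 0.27, adjusted p = 4.04e-07), which overlaps its mock levels at T24.

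TREML1 read -0.25, -0.14, -0.27 and 2.23, so that rabbits 1, 2 and 4 were together and rabbit 5 was far above them (log2 FC -3.25 ± 0.46, adjusted p = 9.17e-06). Rabbit 5 also had the highest TREML1 of the mock cultures, at 4.65, and its own difference between these 2 cultures, -2.42 on the log2 scale, was the smallest of the 4. Without that array the log2 FC was -3.86 (adjusted p = 7.25e-08). ITGA2B, at -0.50, -0.52, -0.72 and 0.21, and GP9, at -0.06, -0.10, -0.24 and 0.78, had the same rabbit on top. ITGA2B had a log2 FC of -1.60 ± 0.23 (adjusted p = 1.03e-05) and GP9 one of -0.89 ± 0.27 (adjusted p = 0.0154). The GP9 call was lost when the arrays of the other groups were kept out of the fit (adjusted p = 0.0867) and without rabbit 1 (adjusted p = 0.126).

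Rabbit 5 was in fact the highest of the 4 rabbits in 5 of 6 groups for TUBB1, ITGA2B and TREML1, and in 4 of 6 for ITGB3 and GP9. For GP1BA, which was not above background, rabbit 5 was highest in none. The 3 slides, each of which held all 6 groups, gave the same direction for the 4 called members. Within slides the difference between PMA-Ionomycin and mock at T4 ran from -3.78 to -1.56 for TUBB1, from -4.86 to -0.93 for TREML1, from -2.93 to -1.55 for ITGB3 and from -2.61 to -0.73 for ITGA2B.

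**Figure D2:**
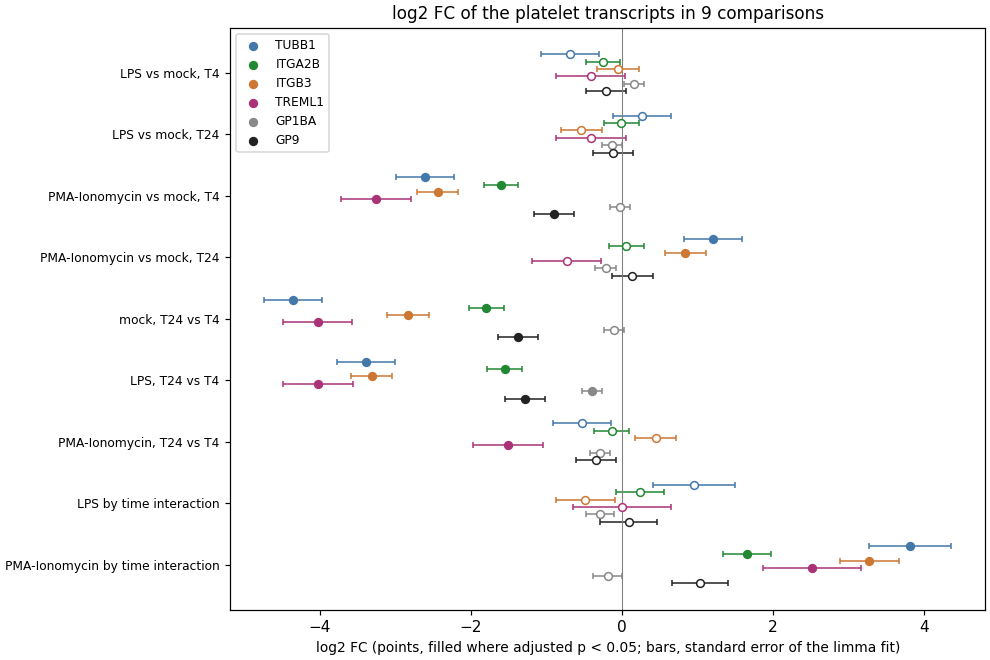
The log2 FC of 5 platelet transcripts and GP9 (horizontal axis) in 9 comparisons (vertical axis), with the standard error of the limma fit as bars; filled points have an adjusted p under 0.05. The 2 comparisons of T24 with T4 in mock and LPS cultures and that of PMA-Ionomycin with mock at T4 lie far below 0 for TUBB1, ITGB3, TREML1 and ITGA2B, and the LPS comparisons with mock lie around 0.

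Between 4 and 24 h of PMA-Ionomycin 1 of the 5 members was called lower, TREML1 (log2 FC -1.51 ± 0.46, adjusted p = 0.0127), where 13.4% of all genes were called lower, and none was called higher. TREML1 read -1.20, -0.93, -1.30 and -1.02 at T24, well above background on 0 of 4 arrays, so that its level at T4 was at least 2.56-fold higher. The call was lost without the high culture of rabbit 5 at T4 (log2 FC -0.90, adjusted p = 0.0697) and with normexp (-0.98, adjusted p = 0.0797), and was kept without rabbit 5 altogether (-0.93, adjusted p = 0.0111). Over all alternatives the log2 FC of TREML1 ran from -3.85 to -0.90. TUBB1 read 2.40, 1.90, 3.11 and 3.10 at T24, which overlaps its levels at T4 (log2 FC -0.53 ± 0.38, adjusted p = 0.301).

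ITGB3 went the other way in 3 of 4 rabbits, from 0.54, 0.72 and 0.74 in rabbits 1, 2 and 4 at T4 to 1.23, 1.86 and 1.84 at T24. In rabbit 5 it went from 1.67 to 0.53. The log2 FC over the 4 rabbits was 0.45 ± 0.27 (adjusted p = 0.224), and without rabbit 5 it was 0.98 (adjusted p = 0.00221). ITGA2B, its partner chain, stayed between -0.69 and -0.34 at T24 (log2 FC -0.14 ± 0.23, adjusted p = 0.661).

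At T24 none of the members was called lower with PMA-Ionomycin than with mock, except TREML1 and GP1BA with the scanner's processed signal (adjusted p = 0.0227 and 0.0356) and GP1BA with the deposited table (0.0225). TUBB1 was 2.31-fold higher (log2 FC 1.21 ± 0.38, adjusted p = 0.016, higher in 4 of 4 rabbits) and ITGB3 1.79-fold higher (log2 FC 0.84 ± 0.27, adjusted p = 0.0193, higher in 3 of 4). These 2 of 5 called higher stand against 22.1% of all genes called higher. For both genes the PMA-Ionomycin and mock levels overlapped, and both calls were lost without rabbit 1 (adjusted p = 0.0859 for TUBB1 and 0.0914 for ITGB3) and without rabbit 4 (0.0747 and 0.0898). The TUBB1 call was also lost with quantile normalization (adjusted p = 0.0629) and normexp (0.0754), and the ITGB3 call without rabbit 2 (0.181), with the processed signal (0.123) and with the deposited table (0.0548). ITGA2B (log2 FC 0.06 ± 0.23) and TREML1 (-0.73 ± 0.46) were not called, and neither was GP9 (0.14 ± 0.27).

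The effect of PMA-Ionomycin thus differed between the times, and the interaction tests this directly. It was called for 4 of 5 members, all higher, where 14.4% of all genes were called higher. The difference between the T24 and T4 effects was 3.82 ± 0.54 on the log2 scale for TUBB1 (adjusted p = 1.14e-05), 3.28 ± 0.39 for ITGB3 (adjusted p = 9.99e-07), 2.52 ± 0.65 for TREML1 (adjusted p = 0.00568) and 1.66 ± 0.32 for ITGA2B (adjusted p = 0.000428). Every rabbit had the same sign for each of these 4. The TREML1 value has no exact size, since TREML1 was well above background on 0 of 4 arrays with PMA-Ionomycin at T24 and on 2 of 4 in mock at T24, so that its T24 effect is measured at the floor. GP9 came to 1.03 ± 0.38 (adjusted p = 0.0512, and 0.0123 with the rabbit as a block). The TREML1 call was lost without rabbit 1 (adjusted p = 0.0844), without rabbit 2 (adjusted p = 0.109) and with the processed signal (adjusted p = 0.248).

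Set in order for each gene, mock and LPS at T4 had the highest means. Single rabbits left a gap below this pair for ITGB3, TREML1 and ITGA2B, but TUBB1 stepped down without one. TUBB1 had group means of 5.77 (SD 0.54) in mock at T4, 5.08 (0.93) in LPS at T4, 3.16 (0.54) in PMA-Ionomycin at T4, 2.63 (0.59) in PMA-Ionomycin at T24, 1.69 (0.24) in LPS at T24 and 1.42 (0.51) in mock at T24, each over 4 rabbits. All neighbours in this order overlapped in single rabbits, LPS and PMA-Ionomycin at T4 through rabbit 4 of the LPS group alone. For ITGB3 the order ran from mock T4 (3.35) and LPS T4 (3.30) to PMA-Ionomycin T24 (1.37), PMA-Ionomycin T4 (0.92), mock T24 (0.53) and LPS T24 (-0.01), with a gap after the first pair and another before the last group. TREML1 ran from mock T4 (3.65) and LPS T4 (3.23) to PMA-Ionomycin T4 (0.39), mock T24 (-0.38), LPS T24 (-0.79) and PMA-Ionomycin T24 (-1.11), where only LPS and PMA-Ionomycin at T4 did not overlap. For ITGA2B the means of mock T4 (1.21) and LPS T4 (0.97) stood apart from the other 4 groups, which overlapped between -0.59 and -0.38.

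The ITGB3 probes differed in whether they were above background. The 4 stacked probes had log2 FC of -3.78, -3.81, -3.88 and -2.12 over time in mock cultures, in order of their start. The separate probe was well above background on 3 of 4 arrays with LPS at T4 and on no array of any other group, so it gives no measure of change there. Its average with the others gave the smaller log2 FC of the gene, -2.83. With PMA-Ionomycin at T24 the 4 stacked probes were each higher than mock by 0.96 to 1.15 (adjusted p from 0.00154 to 0.0451). Both ITGA2B probes moved together, the second by -2.04 and the first by -1.54 between T4 and T24 in mock cultures.

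**Figure D3:**
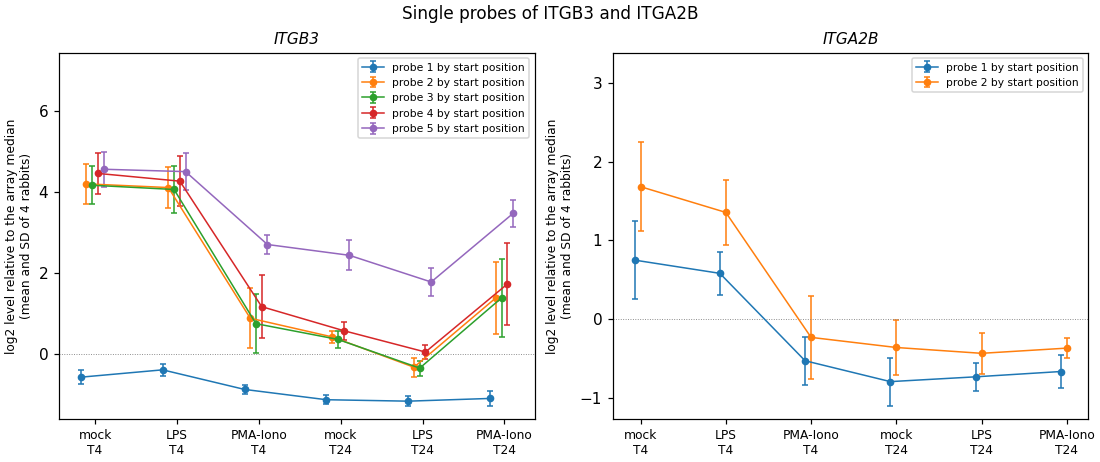
Mean level and SD over 4 rabbits of the single probes of ITGB3 (left) and ITGA2B (right), as log2 signal relative to the array median (vertical axis) by group (horizontal axis). Levels of different probes are not comparable with each other, only their courses are. The 4 stacked ITGB3 probes are lower at T24 than at T4 in mock and LPS cultures and the separate probe, numbered 1 by start position, stays below 0.

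The platelet microbicidal protein 1, a chemokine of rabbit platelet granules by its name in the files, was high in mock cultures. It read 5.33, 5.63, 5.08 and 6.47 in mock cultures at T4 and 5.06, 4.17, 3.94 and 4.32 at T24 (log2 FC -1.26 ± 0.40, adjusted p = 0.0391). With LPS it read 5.33, 5.10, 4.23 and 5.68 at T4 and 5.42, 5.52, 4.70 and 4.84 at T24 (log2 FC 0.04 ± 0.40, adjusted p = 0.946). The difference between LPS and mock in the change over time was not called (interaction 1.29, adjusted p = 0.249). With PMA-Ionomycin it read 2.41, 2.13, 2.50 and 4.31 at T4 and 1.62, 1.11, 0.67 and 0.97 at T24, and was lower than mock at both times (log2 FC -2.79 ± 0.40 at T4, adjusted p = 1.05e-05, and -3.28 ± 0.40 at T24, adjusted p = 4.64e-07).

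Other genes of platelets and megakaryocytes were looked at through 4 lists. Of 29 receptors and membrane proteins 17 had a probe, of 30 granule and secretion genes 18, of 43 signalling and cytoskeleton genes 30, and of 20 genes of megakaryocyte transcription and maturation 12. Many of these genes are used by leukocytes too. In mock cultures between T4 and T24 the receptor list had 3 genes higher and 3 lower of 17, the granule list 5 and 2 of 18, the signalling list 3 and 6 of 30 and the megakaryocyte list 1 and 1 of 12, where 7.41% of all genes were called higher and 5.13% lower. Their median log2 FC, -0.17, 0.09, -0.16 and -0.02, stayed near the -0.06 of all genes.

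The genes that fell included some that platelets use almost alone. CLEC1B, the platelet receptor for podoplanin, went from 2.86 in mock cultures at T4 to -0.83 at T24 (log2 FC -3.69 ± 0.35, adjusted p = 1.09e-07), and GP6, the collagen receptor of platelets, from 0.44 to -0.79, a level well above background on none of the 4 arrays and so at least 2.31-fold lower (adjusted p = 6.5e-07). RGS18, a regulator of G protein signals in platelets, fell by 1.62 (adjusted p = 2.31e-06), MYL9, a myosin light chain, by 1.62 (adjusted p = 0.00613) and PLEK, the kinase C substrate pleckstrin, by 1.79 (adjusted p = 0.00698). THBS1, the granule protein thrombospondin that monocytes also make, fell by 3.12 (adjusted p = 0.000184), and CCL5, a chemokine of platelets and T cells, by 3.03 (adjusted p = 1.93e-05). The other 5 called genes of the granule list rose, led by SLC17A9, the nucleotide transporter of secretory vesicles, by 1.67 ± 0.17 (adjusted p = 3.01e-07).

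The tetraspanins CD9 and CD63, which platelets share with many leukocytes, rose instead, by 2.74 ± 0.36 (adjusted p = 1.04e-05) and 2.38 ± 0.35 (adjusted p = 3.31e-05). Among the transcription factors of megakaryocytes, GATA1 (log2 FC 0.20 ± 0.19, adjusted p = 0.59) and GATA2 (0.09 ± 0.20, adjusted p = 0.826) were not called in mock cultures over time. GATA1 was well above background on all 24 arrays. ETV6, a repressor needed for platelet formation, rose by 0.61 (adjusted p = 0.00153). JAK2, the kinase behind the thrombopoietin receptor, fell by 1.33 (adjusted p = 2.07e-05).

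With LPS, between T4 and T24, the receptor list had 4 genes higher and 4 lower, the granule list 7 and 3, the signalling list 10 and 6 and the megakaryocyte list 1 and 4, where 16.7% of all genes were called higher and 21% lower. CLEC1B fell by 3.73 (adjusted p = 4.77e-08) and CCL5 fell by 2.71, while VAMP8, a fusion protein of granule release, rose by 2.66 and HPS1, needed to form dense granules, by 1.99. THBS1 had a log2 FC of -1.23 (adjusted p = 0.0662). The granule list thus held genes that moved in opposite directions.

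With PMA-Ionomycin at T4 the receptor list had 1 gene higher and 3 lower than mock, the granule list 1 and 1, the signalling list 4 and 13 and the megakaryocyte list none in either direction, where 13.5% of all genes were called higher and 9.34% lower. The 4 receptor genes became 7 and the 2 granule genes 4 with the rabbit as a block, the granule genes 1 without rabbit 4, the 17 signalling genes 11 without rabbit 2, and the 0 megakaryocyte genes 1 to 2 under 5 alternatives. CLEC1B fell by 2.87 (adjusted p = 1.12e-06), GP6 by 0.99 (adjusted p = 4.26e-06) and MYL9 by 2.88 (adjusted p = 5.63e-06). SYK, the kinase that carries the GP6 and CLEC1B signals but also that of the B cell receptor, fell by 2.29 (adjusted p = 5.63e-08). RASGRP2, the exchange factor that activates Rap in platelets and lymphocytes, fell by 1.78 (adjusted p = 2.11e-05) and VAMP8 by 1.29 (adjusted p = 0.000518). GP5, a chain of the von Willebrand factor receptor complex, was higher with PMA-Ionomycin in 4 of 4 rabbits (log2 FC 0.41 ± 0.13, adjusted p = 0.026), well above background on 4 of 4 arrays against 1 of 4 in mock, and SERPINE2, a protease inhibitor held in platelet granules, rose by 1.20 (adjusted p = 0.00238). THBS1 was not called (log2 FC -1.01 ± 0.53, adjusted p = 0.209). With LPS at T4, CLEC1B had a log2 FC against mock of -0.08 ± 0.35 (adjusted p = 0.937), and 2 of 18 granule and 1 of 30 signalling genes were called, all lower, where 1.03% of all genes were called: VAMP8 (log2 FC -1.10, adjusted p = 0.0454), HPS1 (-0.98, adjusted p = 0.0373) and TLN1 (-0.92, adjusted p = 0.0454), the talin that activates integrins. Without rabbit 2, without rabbit 4 or with the other groups' arrays kept out of the fit, limma called 0 genes of the array in this comparison. The granule count moved under 12 alternatives, to between 0 and 4, and the signalling count under 11, to between 0 and 2.

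Between 4 and 24 h of PMA-Ionomycin the receptor list had 0 genes higher and 5 lower, the granule list 3 and 4, the signalling list 6 and 5 and the megakaryocyte list 2 and 4, where 20.3% of all genes were called higher and 13.4% lower. The 5 receptor genes became 2 to 3 under 3 alternatives. CLEC1B went from -0.01 to -1.07, with 1 of 4 arrays well above background at T24 (log2 FC -1.06 ± 0.35, adjusted p = 0.0204). THBS1 fell by 4.03 (adjusted p = 1.34e-06), PLEK by 2.79 (adjusted p = 1.84e-05) and CCL5 by 2.02 (adjusted p = 0.000492), while TPM4, a tropomyosin, rose by 1.86 (adjusted p = 2.09e-08). Platelet microbicidal protein 1 fell by 1.75 (adjusted p = 0.00121).

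**Figure D4:**
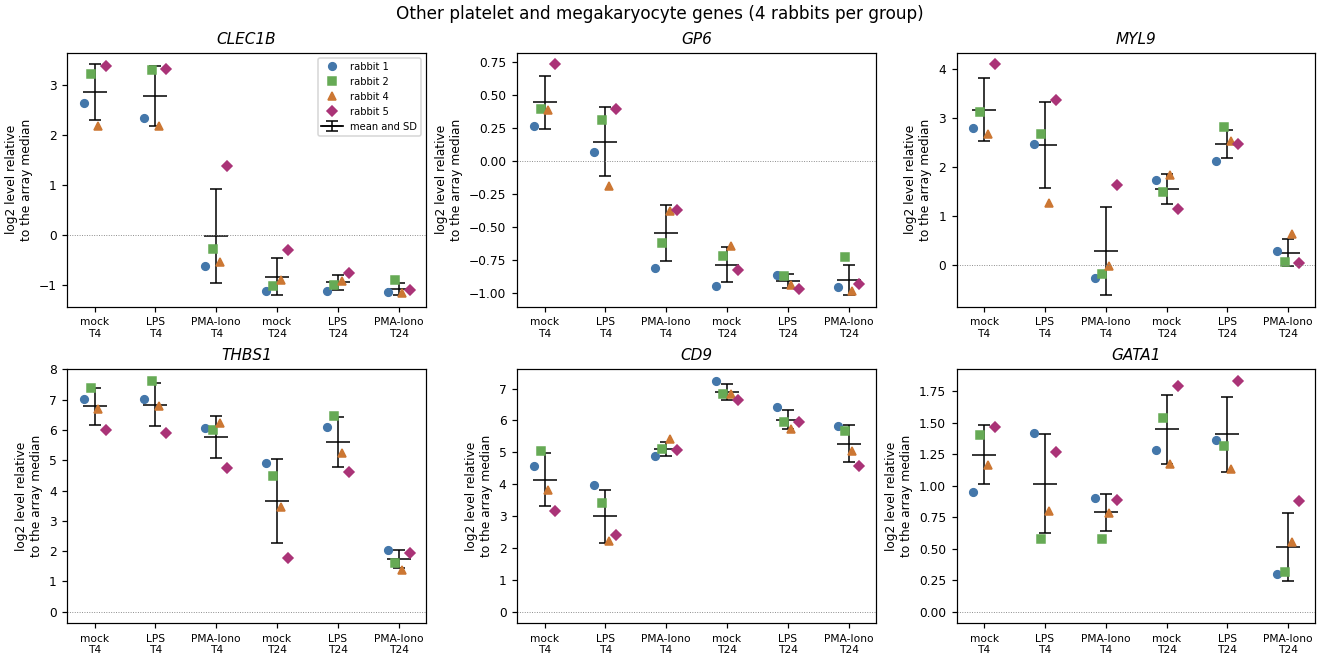
Level of 6 other platelet and megakaryocyte genes in each culture, as log2 signal relative to the array median (vertical axis, scaled for each gene) by group (horizontal axis), with 4 rabbits as symbols and their mean and SD as bars. CLEC1B and GP6 are high in mock and LPS cultures at T4 and lower in the other groups, CD9 is higher at T24 than at T4 in mock and LPS cultures, and GATA1 lies between 0.30 and 1.83 on all 24 arrays.

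At T24 PMA-Ionomycin lowered genes of all 4 lists against mock, 6 of 17 receptors, 6 of 18 granule, 10 of 30 signalling and 5 of 12 megakaryocyte genes, and raised 0, 1, 3 and 1, where 11.5% of all genes were called lower and 22.1% higher. GATA1 was 0.94 lower (log2 FC -0.94 ± 0.19, adjusted p = 0.000356), GATA2 at least 1.91-fold lower (adjusted p = 0.000382) and THBS1 1.92 lower (log2 FC -1.92 ± 0.53, adjusted p = 0.00556). PECAM1, an adhesion protein of platelets, leukocytes and endothelium, fell by 2.31 (adjusted p = 0.000676), and CBFA2T3, a corepressor of early megakaryocytes, rose by 1.92 (adjusted p = 0.0049). CLEC1B and GP6, well above background on 1 and 0 of the 4 mock arrays of that time, were not called (log2 FC -0.24 ± 0.35 and -0.12 ± 0.13). In the interaction of PMA-Ionomycin with time the receptor list had 2 genes higher and 3 lower and the granule list 0 and 2. The signalling list had 7 and 2 and the megakaryocyte list 1 and 1. Of all 28865 genes 6505 were called, 4152 of them higher. The 5 receptor genes became 8 to 9 under 2 alternatives and the 2 megakaryocyte genes 0 to 1 under 7.

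Among 6563 other genes with a symbol and with signal above background throughout at least 1 group, the profile over the 24 arrays most like the mean profile of the 5 members was that of CLEC1B (Pearson r = 0.97). SERPINB10 (0.96), GP6 (0.95), DDIT4L (0.95), AK1 (0.93), CLDN3 (0.93), ATP2A1 (0.93), SH3BGRL2 (0.93), GDF9 (0.92) and CRYBA1 (0.92) followed. The 24 arrays share 4 rabbits and fall into groups of high and low level, so these values describe likeness and carry no test. With GP1BA, which was not above background, left out of the mean profile, the order changed: CLEC1B (0.98) stayed above the other 9, GP6 (0.954) passed SERPINB10 (0.953), AK1 came to 0.95, and ATP2A1 and GDF9 came to 0.90. Of these 10 genes, CLEC1B, GP6 and SH3BGRL2 belonged to the platelet lists. In the limma fit all 10 were called lower at T24 than at T4 in mock cultures and lower with PMA-Ionomycin than with mock at T4, where 5.13% and 9.34% of all genes were. With PMA-Ionomycin, 6 of the 10 were called lower at T24 than at T4, where 13.4% of all genes were. The 10 genes were chosen for this profile on the same arrays, so these counts are no independent result. SERPINB10 went from 3.29 in mock cultures at T4 to 0.30 at T24 and GDF9 from 3.15 to -0.25.

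The mean levels of leukocyte marker lists had other courses in mock cultures. The monocyte list was on average higher in mock cultures at T24 (2.80 to 3.50 over the 4 arrays) than at T4 (1.92 to 2.96), with 5 of 12 markers called higher and 1 lower, and the neutrophil list had 4 of 11 higher and none lower, where 7.41% of all genes were called higher and 5.13% lower. The T cell list overlapped between the times (0.59 to 0.99 at T4 and 0.39 to 0.86 at T24), with 1 of 11 markers called higher and 2 lower. So did the B cell list (3.74 to 4.39 and 3.39 to 5.07), with 1 of 7 higher and 0 lower. The NK cell list, with 0 of 2 called, overlapped too (0.39 to 1.28 and 0.40 to 1.24). The erythrocyte list, the other cells without a nucleus, spanned 0.70 to 1.52 at T4 and 0.50 to 1.17 at T24, with 1 of 8 called lower. The 5 members averaged 2.20 to 3.16 at T4 and -0.22 to 0.36 at T24.

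With PMA-Ionomycin at T4 the mean levels of the B cell and neutrophil lists were also below mock, without overlap, while those of the monocyte list overlapped mock. The B cell list lay at 2.54 to 3.09 against 3.74 to 4.39 in mock, with 4 of 7 markers lower and 1 higher, the neutrophil list at 1.97 to 2.32 against 2.88 to 3.20, with 3 of 11 lower, and the monocyte list at 1.61 to 2.21 against 1.92 to 2.96, with 4 of 12 lower, where 9.34% of all genes were called lower and 13.5% higher. The median log2 FC was 0.05 for the monocyte list, against -1.70 for the B cell and -0.36 for the neutrophil list. The monocyte markers thus did not fall as a set, though CD14 alone fell by 3.01 (adjusted p = 3.31e-07). Of these markers, 1 of 11 neutrophil markers was above background on none of the 4 arrays with PMA-Ionomycin at T4, and none of the B cell or monocyte markers. The part of these cells in the change of the platelet transcripts was not tested. The members averaged 0.33 to 1.38 with PMA-Ionomycin at T4.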

How the data were processed

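RNA of 24 PBMC cultures was hybridized to one-colour Agilent arrays (Cy3). Per the labels, signals were extracted with Agilent Feature Extraction 10.7.3.1. The deposited scanner files hold spot intensity that the authors did not normalize between arrays. The authors' deposited table holds log2 median signals minus their mean over all spots of the array, controls among them. Groups follow the labels. The members and gene lists were chosen with earlier results of these data known.

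Following the study's methods, log2 median signals of 61657 non-control spots were centred on the array median. Spots flagged as outliers were left out, and spots were averaged per probe and probes per gene. Group means over all 24 arrays were fitted with limma 3.58.1 in R 4.3.3 (lmFit, eBayes), with Benjamini-Hochberg adjustment over 28865 genes, of which 9500 had a symbol. The fit recovered changes added to simulated data with independent noise, without shared rabbits or a background floor. That check thus does not cover these features of the arrays. Named genes were the members, THBS1, GATA1 and GATA2, up to 3 called genes of each platelet list with the largest change in a comparison, and the 10 genes most like the members. CD14, CLEC1B and GP6 in further comparisons, and platelet microbicidal protein 1, were named after their values were seen.

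A gene is well above background on an array where any of its probes is. A group with no such array gives only a bound, the bright group's mean against the higher of the dim signal and the lowest signal well above background. Precision is limited by 4 arrays a group. Same-numbered cultures come from the same rabbit. Their deviations from group means correlated with a median r of 0.23 (60 pairs of arrays), against -0.07 between different rabbits. Alternatives were other normalizations and background corrections, the deposited table, probe and spot filters, blocks for rabbit or slide, single probes and leaving out each rabbit.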

Additional observations from a re-analysis of the deposited data

Results flagged for a closer look

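Within groups of 4 rabbits, 36 sets of values (5 members and GP9 in 6 groups) were examined for a sample far from the others, of which chance would pick about 1 in 20, and 3 were found. All 3 are rabbit 5: ITGA2B at 1.99 in mock at T4 (others 0.88 to 1.00), ITGB3 at 1.67 with PMA-Ionomycin at T4 (others 0.54 to 0.74) and TREML1 at 2.23 with PMA-Ionomycin at T4 (others -0.27 to -0.14).

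The effect of PMA-Ionomycin differed between T24 and T4 by the test of the interaction for TUBB1 (3.82), ITGB3 (3.28), TREML1 (2.52) and ITGA2B (1.66), each a difference of log2 FC. The TREML1 value has no exact size, since none of the 4 arrays with PMA-Ionomycin at T24 was well above background. The ITGA2B value ran from 1.43 to 3.54 over the alternatives.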

How the results depend on the processing

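No alternative turned the sign of a called log2 FC of a member. The falls of TUBB1, ITGB3, ITGA2B and TREML1 over time in mock and LPS cultures and with PMA-Ionomycin at T4 kept their calls in 16 of 16 alternatives. Their sizes moved, those of ITGA2B and TREML1 the most. In mock cultures over time ITGA2B ran from -3.41 to -1.45 and TREML1 from -5.85 to -3.70. With LPS over time they ran from -3.20 to -1.35 and from -6.55 to -3.71. With PMA-Ionomycin at T4 they ran from -3.50 to -1.43 and from -4.38 to -3.07. The 2 members called between PMA-Ionomycin and mock at T24 became 1 with quantile normalization, 1 with normexp, and 0 to 2 without 1 rabbit (0 without rabbit 1 or 4, 1 without rabbit 2). With the processed signal they were 3, of which TUBB1 was higher and TREML1 and GP1BA lower, and from the deposited values 2, TUBB1 higher and GP1BA lower, so that ITGB3 was lost in both. The 1 member called between the times with PMA-Ionomycin became 0 with normexp, 2 with the deposited values, 2 without rabbit 5, and 0 without the rabbit 5 culture at T4, an alternative chosen after seeing the data. The rabbit as a block (a paired fit) left these at 2 and 1 and changed no call of a member, nor did the slide as a block. The processed signal moved the median log2 FC of all genes most, to -0.46 from -0.19 for LPS over time. The split of calls over all genes moved too. For PMA-Ionomycin against mock at T24, 65.8% of calls were higher, but 52.8% with quantile normalization, 52.9% with normexp, 46.3% with the processed signal and 51.1% with the deposited table. With the processed signal it was 47.1% against 59.0% for PMA-Ionomycin at T4, 48.9% against 59.1% for mock over time, 32.3% against 44.3% for LPS over time (but 61.0% with dim probes left out, 54.7% with the arrays of the other groups kept out, 55.6% without rabbit 2 and 55.7% without rabbit 4), 47.0% against 60.3% for PMA-Ionomycin over time (48.8% with the deposited table), and 52.7% against 63.8% for the interaction. The 296 genes called between LPS and mock at T4 became 1230 with the rabbit block, 8 with the processed signal, 71 to 119 with quantile normalization, normexp, the deposited values or without rabbit 1 or 5, and 0 without rabbit 2 or 4 or with the arrays of the other groups kept out. The 352 called at T24 became 749 with the rabbit block, 611 without rabbit 5, 109 without rabbit 2, 85 without rabbit 4 and 47 with the arrays of the other groups kept out. The 561 of the LPS by time interaction became 1660 with the rabbit block, 220 with the other arrays kept out, 176 with the processed signal, 184 without rabbit 5, 31 without rabbit 4 and 7 without rabbit 2. Of 612 recounts of the platelet lists, 88 moved by more than 1.5 times, among them the 7 granule genes called in mock cultures over time, which became 4 without rabbit 1, and the 5 megakaryocyte genes called with LPS over time, which became 2 to 3 under 5. What caused these shifts was not tested. Signal over background limits these arrays, since GP1BA was well above background on no array, GP6 on none at T24, TREML1 on 2, 1 and 0 of 4 at T24 (mock, LPS, PMA-Ionomycin), CLEC1B on 1 of 4 in each of these groups, and ITGA2B on 2, 2 and 4 of 4.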
